A study of Danio rerio with 10 samples.

Results

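The chaperones other than HSP90 were taken as every row of the deposited array table whose single gene symbol belongs to the HSP70, HSP60, HSP10 and small heat shock protein (hsp, cryab), J protein (dnaja, dnajb, dnajc), TRiC/CCT chaperonin (tcp1, cct2 to cct8), BAG cochaperone (bag1 to bag6) or protein disulfide isomerase (pdia) names. This gave 74 of 15617 rows, called probe sets because each summarises several probes against a transcript, and these 74 stood for 65 genes. The rule used names and no measured values, but it and the compartments were chosen with earlier results of these data known. By textbook location of their products, 45 rows (40 genes) were placed in the cytosol and nucleus, 16 rows (13 genes) in the endoplasmic reticulum (ER) and 9 rows (8 genes) in the mitochondrion. The last 4 rows, dnajc5ga and dnajc5gb of vesicles and dnajc4 and dnajc18, whose place was not settled, were kept apart.

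Chaperones bind unfolded proteins and help them to fold, to cross membranes or to be degraded. HSP70 proteins bind and release clients in an ATP cycle that J proteins start and that BAG, HSP110 and HSPBP1 proteins end by exchanging the nucleotide, while TRiC/CCT and HSP60 with HSP10 enclose clients in a barrel. Small heat shock proteins hold clients without ATP and are abundant in muscle. Disulfide isomerases form and correct disulfide bonds in the ER, and HSP60, HSP10 and the mitochondrial HSP70 fold proteins imported into mitochondria.

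RNA of zebrafish hearts was measured on Affymetrix Zebrafish arrays after biotin labelling. The hypoxia group was hearts of fish under low oxygen and the normoxia group hearts of fish under normal oxygen, with 5 arrays each. Per group, 4 arrays are labelled as biological samples and the fifth as a technical repeat of sample 2. The description of hypoxia array 5 also carries the number 4, and it was taken as the repeat. How low the oxygen was and for how long, the strain, sex and age of the animals, and whether hearts were pooled are not stated in the labels used, so p-values measure the spread between these samples only.

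Some arrays stood closer together than their labels say. Across 2247 bright probe sets the log2 differences between hypoxia 1 and hypoxia 4 had an SD of 0.112 and those between normoxia 3 and normoxia 4 an SD of 0.0927, no more than the 0.151 between normoxia 2 and its repeat. That less alike technical pair set the bar. The other, hypoxia 2 and its repeat, had an SD of 0.105, under that of hypoxia 1 and 4. Hypoxia 1 with 4 and normoxia 3 with 4 were each averaged and counted once. This left hypoxia 1/4, 2 and 3 and normoxia 1, 2 and 3/4 as 3 samples per group. The heart muscle markers on the array (6 of 10 listed) averaged 11.72 to 11.85 in hypoxia and 11.96 to 12.03 in normoxia (log2 intensity). Other tissues were present as well. Red blood cell markers (6 of 7 on the array) averaged 11.19 to 11.52 in hypoxia and 10.57 to 10.68 in normoxia, liver markers (7 of 9) 10.62 to 11.60 in hypoxia and 6.35 to 10.25 in normoxia, skeletal muscle markers (8 of 9) 9.16 to 9.57 in hypoxia and 8.86 to 10.83 in normoxia, and pancreas markers (4 above the filter of 7 on the array) 5.85 to 6.90 in hypoxia and 6.34 to 7.20 in normoxia. All red cell, liver and skeletal muscle markers on the array passed the filter on dim probe sets, and 3 pancreas markers, ela2l, ela3l and cel.1, were under it. Some of these means join log2 differences, hypoxia minus normoxia, of both signs. Of 5 pancreas rows 3 lay above 0, while ctrb.1 had -3.16 (adjusted p = 0.0150 from limma). Of 9 skeletal muscle rows 1 lay above 0, pvalb2 at 2.06. The part of these tissues in the results was not tested, and in whole hearts fewer cells of a type and less RNA per cell cannot be told apart.

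The median difference was near that of all probe sets for the chaperones as a whole (-0.03 over 67 rows) and farther from it for single groups. The 41 cytosolic and nuclear rows above the filter had a median log2 difference, hypoxia minus normoxia, of 0.09. The 9 mitochondrial rows had one of -0.47 and the 14 ER rows above the filter one of -0.13, beside -0.05 over all 10851 probe sets tested. Only these medians by compartment were among the planned results. Within the cytosol and nucleus the median was 0.25 for the 9 TRiC/CCT rows, 0.10 for HSP70 and 0.06 for J protein rows. It was -0.06 for exchange factor and -0.16 for small heat shock protein rows. Of the 74 rows, 67 (59 genes) passed the filter. Of these, 3 rows were called at a Benjamini-Hochberg adjusted p under 0.05 from limma, over all probe sets. The chaperonin subunit gene cct6a rose, and the small heat shock protein gene hspb6 and the mitochondrial J protein gene dnaja3a fell. That is 3 of 67, or 4.48%, and the same call was made for 3.97% of all probe sets tested (0.958% higher and 3.01% lower), so the share of chaperone rows called was near the background. Hypoxia and normoxia samples did not overlap for 26 of the 67 rows, 13 higher and 13 lower in hypoxia, while 27.2% of all probe sets had groups that did not overlap, 9.94% higher and 17.3% lower. An unadjusted p under 0.05 was reached by 19 rows, 9 higher and 10 lower, beside 21.2% of all probe sets (7.77% higher and 13.4% lower).

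**Figure D1:**
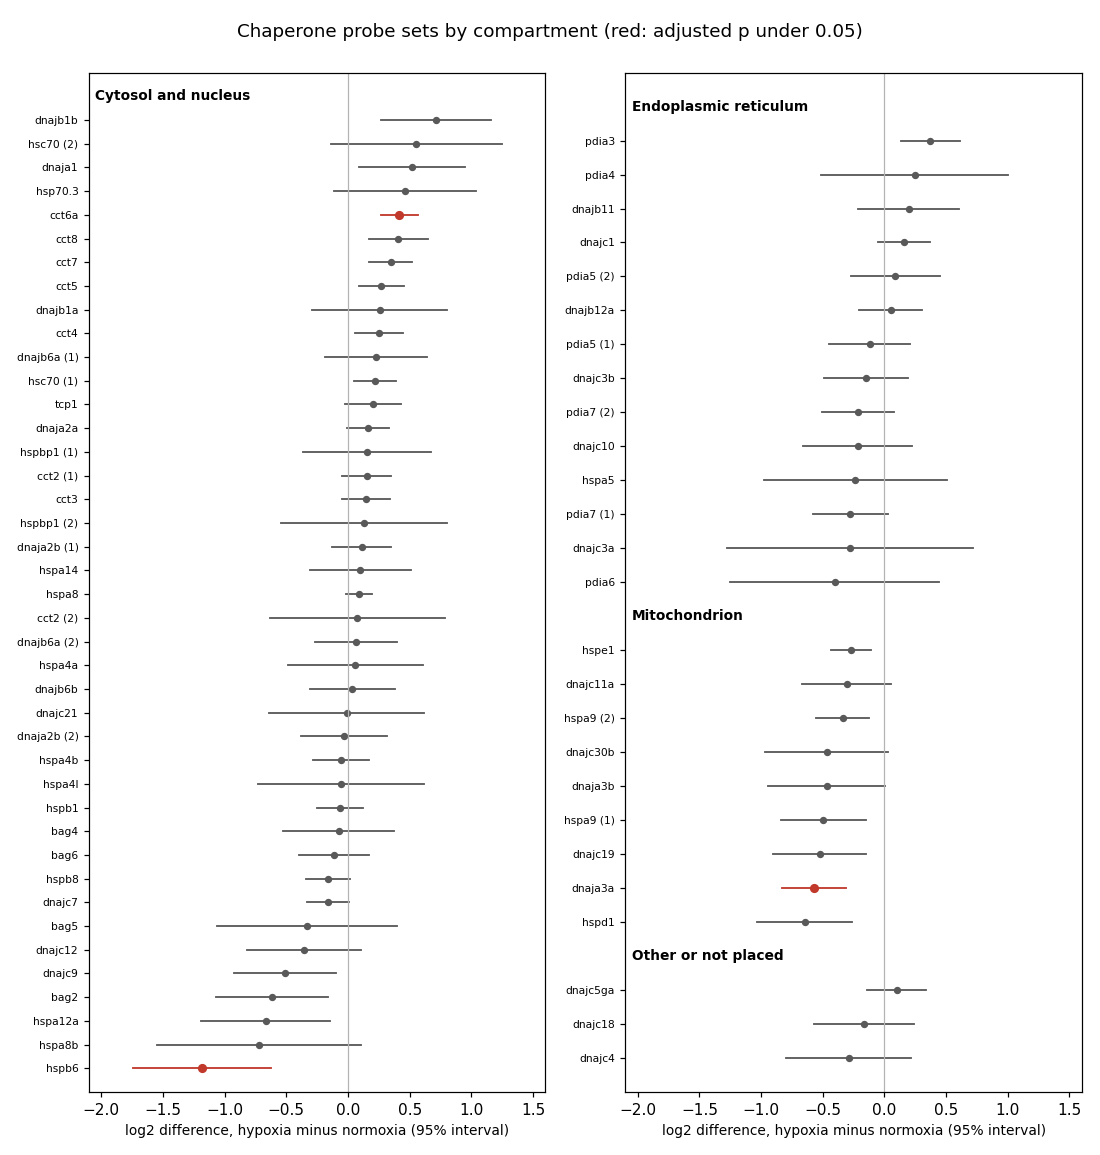
Log2 difference, hypoxia minus normoxia, of the 67 chaperone probe sets above the filter (points) with the 95% interval from limma (lines), n = 3 samples per group. Red marks the 3 called rows, cct6a, hspb6 and dnaja3a, and a number in brackets tells apart rows of the same gene. All 9 mitochondrial rows lie left of 0 and the TRiC/CCT rows lie right of it.

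None of these 3 calls held throughout. Without any 1 of the 6 samples cct6a and dnaja3a were no longer past the threshold (adjusted p = 0.0535 to 0.101 and 0.0828 to 0.135 from limma), and hspb6 kept its call only without hypoxia 2. With the 8 samples as labelled, 6 chaperone rows were called higher and 8 lower in limma, beside 12.8% of all probe sets (4.31% higher and 8.5% lower). That fit counts near-identical arrays as separate samples.

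The TRiC/CCT chaperonin folds actin, tubulin and other cytosolic proteins in a double ring of 8 different subunits, and a probe set was measured for each. The subunit gene cct6a had log2 intensities of 10.11, 10.07 and 10.17 in hypoxia 1/4, 2 and 3, against 9.67, 9.70 and 9.75 in normoxia 1, 2 and 3/4. All hypoxia samples lay above all normoxia samples. It averaged 10.12 ± 0.05 in hypoxia and 9.71 ± 0.04 in normoxia (SD, n = 3), a 1.33-fold rise, with a log2 difference of 0.41 ± 0.06 (SE, adjusted p = 0.0268 from limma). The difference was 0.22 in the deposited scaling and 0.15 under median scaling, and the call was lost in both (adjusted p = 0.569 and 0.322 from limma).

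The other subunit genes had smaller or more variable differences, none past the threshold. The gene cct7 had 9.77, 9.80 and 9.81 in hypoxia against 9.35, 9.55 and 9.45 in normoxia, in the same sample order, without overlap, and a difference of 0.34 (adjusted p = 0.0575 from limma). The gene cct8 had 10.05, 10.13 and 10.31 in hypoxia against 9.77, 9.88 and 9.62 in normoxia, also without overlap, and a difference of 0.41 (adjusted p = 0.0825 from limma). Groups did not overlap for cct5, cct4 and the brighter cct2 row either, at 0.27, 0.25 and 0.15. They overlapped for tcp1 at 0.20, where hypoxia 1/4 (9.32) lay among the normoxia samples (9.28 to 9.33), and for cct3 at 0.14. The dimmer cct2 row, near background, had 0.08. Groups thus did not overlap for 6 of 9 TRiC/CCT rows, all 6 higher in hypoxia, beside 9.94% of all probe sets.

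Averaged over the 8 subunit genes, each by its brighter row, the level was 9.84, 9.88 and 9.96 in hypoxia 1/4, 2 and 3 and 9.59, 9.66 and 9.61 in normoxia 1, 2 and 3/4. The median difference over the 9 rows was 0.25 among the arrays hybridized in the first run, 0.28 in the second and 0.22 in the third. Here and below, values by run are not independent. The third run holds technical repeats of sample 2 of the first, and hypoxia 1/4 has an array in both the first and the second. The size, and for some subunits the sign, depended on how arrays were scaled. The median was 0.24 with cyclic loess, 0.06 in the deposited scaling and -0.02 under median scaling, where 4 of 9 rows lay above 0. Under each of these scalings all 9 rows lay above the median of all probe sets and above that of the bright ones, those averaging 8 or more on the log2 scale. The deposited values and median scaling put the bright median at -0.17 and -0.24, against -0.03 with quantile normalization.

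**Figure D2:**
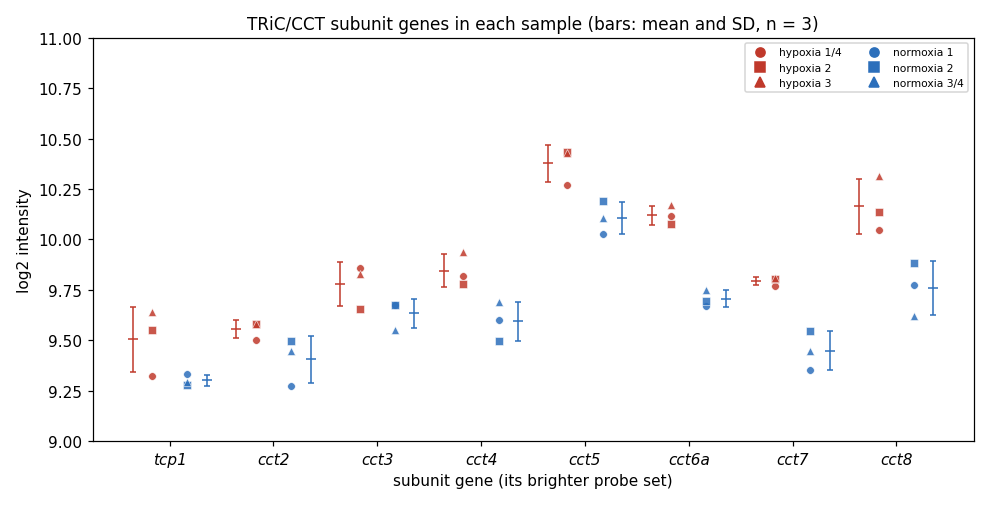
Log2 intensity of the 8 TRiC/CCT subunit genes in each counted sample, hypoxia in red and normoxia in blue, with the group mean and SD (n = 3) beside the points. The groups are separate for cct2, cct4, cct5, cct6a, cct7 and cct8 and overlap for tcp1 and cct3.

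Prefoldin passes nascent actin and tubulin to TRiC/CCT. Of its genes, 5 of 6 listed were on the array, on 6 rows. This list and the lists of other pathway genes below were added after their values were seen. None was called in limma (1 had an unadjusted p under 0.05, beside 21.2% of all probe sets). The differences were -0.08 to 0.20 with a median of 0.09. The largest was that of pfdn4 at 0.20 (adjusted p = 0.212 from limma).

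Cytosolic HSP70 and J protein genes had differences in both directions, and none was called in limma. There 5 of the 20 rows had an unadjusted p under 0.05, beside 21.2% of all probe sets. The constitutive HSP70 gene hspa8 had 11.88, 11.79 and 11.83 in hypoxia against 11.73, 11.73 and 11.78 in normoxia. The groups were separate by a narrow margin, and the difference was 0.09 with a 95% interval of -0.02 to 0.19. The brighter row of hsc70, another constitutive HSP70 gene, had 10.12, 9.95 and 10.06 in hypoxia against 9.78, 9.83 and 9.87 in normoxia and a difference of 0.22 (adjusted p = 0.148 from limma). Its dimmer row gave 0.55 and a wider interval, -0.14 to 1.25. The stress-inducible gene hsp70.3 had 7.27, 7.14 and 6.99 in hypoxia against 6.90, 6.99 and 6.12 in normoxia. Hypoxia 3 lay within the normoxia range there, and the difference of 0.46 was 0.32 in the first run, 0.03 in the third and larger in the second. Its probe set is of a type that can bind transcripts of related genes. The genes that respond fast to stimuli and handling (8 of 9 on the array) averaged 7.41 to 7.74 in hypoxia and 8.45 to 9.24 in normoxia, and their part in the HSP70 values was not tested.

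Among other HSP70 rows, hspa8b had -0.72, with normoxia 1 (5.61) inside the hypoxia range of 5.04 to 5.83. The atypical HSP70 gene hspa12a had 5.20, 5.27 and 5.05 in hypoxia against 5.88, 6.21 and 5.44 in normoxia. Its groups did not overlap, and the difference was -0.67 (adjusted p = 0.152 from limma). The gene hspa14, of a ribosome-linked HSP70, had 0.10.

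The J protein gene dnajb1b, partner of the stress-inducible HSP70, had the largest positive difference of all chaperone rows. It had 7.36, 7.67 and 7.86 in hypoxia against 6.95, 7.18 and 6.64 in normoxia, without overlap. The difference was 0.71 ± 0.19 (SE, adjusted p = 0.0940 from limma), and it was 0.44, 0.98 and 0.51 by run. Its paralogue dnajb1a had 0.26 with overlapping groups and was below the background bound on 1 of 5 hypoxia and 2 of 5 normoxia arrays. The genes dnaja1 and dnaja2a, which code for general HSP70 partners, had 0.52 and 0.16 and both had separate groups (dnaja1 was below the background bound on 2 of 5 normoxia arrays), while dnaja2b gave 0.11 and -0.03 on its 2 rows. In the other direction, dnajc9, whose product also handles histones, had -0.51 and dnajc7, whose product binds HSP70 and HSP90, had -0.16, both with separate groups. The remaining cytosolic and nuclear J protein rows above the filter, of dnajb6a, dnajb6b, dnajc12 and dnajc21, ran from -0.36 to 0.23.

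Nucleotide exchange factors of HSP70 had differences of -0.62 to 0.15 over 9 rows, with a median of -0.06. The gene bag2, whose product also inhibits the ubiquitin ligase CHIP, had 7.54, 7.59 and 7.14 in hypoxia against 7.78, 7.97 and 8.37 in normoxia. It was the only exchange factor row with separate groups, at -0.62 (adjusted p = 0.132 from limma). The BAG genes bag4 and bag6 had -0.08 and -0.12, and the 2 rows of hspbp1 had 0.15 and 0.13. The HSP110 genes hspa4a and hspa4b had 0.06 and -0.06. The rows of bag5 and hspa4l passed the filter but lay near background: bag5 was below the bound on 4 of 5 hypoxia and 3 of 5 normoxia arrays, and hspa4l on 3 of 5 hypoxia and 4 of 5 normoxia arrays. Of a list of heat shock factors and further cytosolic cochaperones, 17 of 20 genes were on the array. They gave 0 calls over 16 rows tested in limma, 4 with an unadjusted p under 0.05, beside 21.2% of all probe sets. The median was -0.17, the range -0.41 to 0.29, and 6 rows lay above 0. The lowest row, hsbp1a, was below the background bound on all 5 hypoxia and 2 of 5 normoxia arrays. The gene of the heat shock factor hsf1 had -0.34 with overlapping groups on the row that passed the filter. The gene of the myosin chaperone unc45b had -0.35 and st13 had the highest value, 0.29, both with separate groups.

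Small heat shock protein genes were measured on 3 rows above the filter. The gene hspb6, whose protein is known as HSP20 in mammalian heart and smooth muscle, had 9.42, 10.03 and 9.35 in hypoxia against 10.97, 10.37 and 11.01 in normoxia. The groups did not overlap, but in each group sample 2 stood nearest to the other group. Its level was 9.60 ± 0.38 in hypoxia and 10.78 ± 0.36 in normoxia (SD, n = 3), a log2 difference of -1.18 ± 0.23 (SE, adjusted p = 0.0453 from limma), the largest of any chaperone row. By run the difference was -0.91, -1.68 and -0.31, the last from the technical repeats of sample 2. It lay between -1.17 and -1.44 under the other scalings, and with cyclic loess it missed the threshold (adjusted p = 0.0532 from limma).

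The other members of this family differed less. The gene hspb1, of the widely expressed HSP27, had 11.41, 11.22 and 11.52 in hypoxia against 11.45, 11.43 and 11.47 in normoxia, with overlap and a difference of -0.06 (95% interval -0.25 to 0.12). The gene hspb8, whose product works with BAG proteins in muscle autophagy, had 9.58, 9.56 and 9.68 in hypoxia against 9.68, 9.80 and 9.82 in normoxia. Those groups were separate by a narrow margin, with a difference of -0.16 (adjusted p = 0.264 from limma). The alpha B crystallin gene cryaba was under the filter and under the background bound on all 10 arrays.

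All 9 mitochondrial rows lay below 0, from -0.65 to -0.27. Of these, 6 had separate groups, all 6 lower in hypoxia, beside 17.3% of all probe sets. Only 1 was called, lower in hypoxia, beside 3.01% of all probe sets. The called gene dnaja3a codes for a J protein of the mitochondrial HSP70 whose mouse counterpart is needed in heart muscle. It had 7.35, 7.13 and 7.30 in hypoxia against 7.93, 7.74 and 7.82 in normoxia, with 7.26 ± 0.11 in hypoxia and 7.83 ± 0.09 in normoxia (SD, n = 3). It fell by 0.57 ± 0.11 on the log2 scale (SE, adjusted p = 0.0421 from limma), with -0.66, -0.59 and -0.29 by run. Arrays that were averaged stood apart for this gene. Hypoxia 1 and 4 had 7.55 and 7.15, and normoxia 3 and 4 had 8.04 and 7.60. Hypoxia 2 and its repeat had 7.03 and 7.23, and normoxia 2 and its repeat 7.97 and 7.52. By single array the groups thus overlapped. The call of dnaja3a was lost in the deposited scaling, with cyclic loess, with no filter and with no intensity trend. Its paralogue dnaja3b had -0.47 with overlapping groups.

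The chaperonin pair also had lower levels in hypoxia, without passing the threshold. The HSP60 gene hspd1 had 8.79, 8.30 and 8.59 in hypoxia against 8.98, 9.21 and 9.43 in normoxia, and a difference of -0.65 ± 0.16 (SE, adjusted p = 0.0846 from limma). The HSP10 gene hspe1, whose product forms the lid of the barrel, had 9.77, 9.79 and 9.81 in hypoxia against 10.02, 10.00 and 10.16 in normoxia, and -0.27 ± 0.07 (SE, adjusted p = 0.0858 from limma). For both genes every hypoxia sample lay below every normoxia sample.

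The mitochondrial HSP70 gene hspa9, whose product pulls proteins through the import channel and folds them, gave 9.70, 9.58 and 9.58 in hypoxia against 9.84, 9.92 and 10.12 in normoxia on its brighter row. Its dimmer row had 7.55, 7.26 and 7.31 in hypoxia against 7.81, 7.68 and 8.10 in normoxia. Groups were separate on both rows, and the differences were -0.34 and -0.49 (adjusted p = 0.0995 and 0.120 from limma). The gene dnajc19, of the J protein at the import motor, had 7.62, 7.73 and 7.21 in hypoxia against 7.98, 8.20 and 7.96 in normoxia and a difference of -0.53 (adjusted p = 0.125 from limma), again without overlap. The rows of dnajc30b at -0.47 and dnajc11a at -0.31 had groups that overlapped in 1 sample or more.

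Over the 8 mitochondrial genes, each by its brighter row, the mean level was 7.61, 7.59 and 7.58 in hypoxia 1/4, 2 and 3 and 8.02, 8.03 and 8.08 in normoxia 1, 2 and 3/4. The median difference over the 9 rows was -0.34, -0.59 and -0.33 by run. It was -0.39 with cyclic loess, -0.54 in the deposited scaling and -0.62 under median scaling, and in all 20 alternatives all 9 rows stayed below 0 and below the median of all probe sets. Of the heart muscle markers 1 of 6 was called lower, myh7 at -0.89, and the median of the list was -0.09. Of the red blood cell markers 4 of 6 were called higher, with a median of 0.66. Over all probe sets 3.01% were called lower and 0.958% higher. The part of these markers in the mitochondrial values was not tested.

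**Figure D3:**
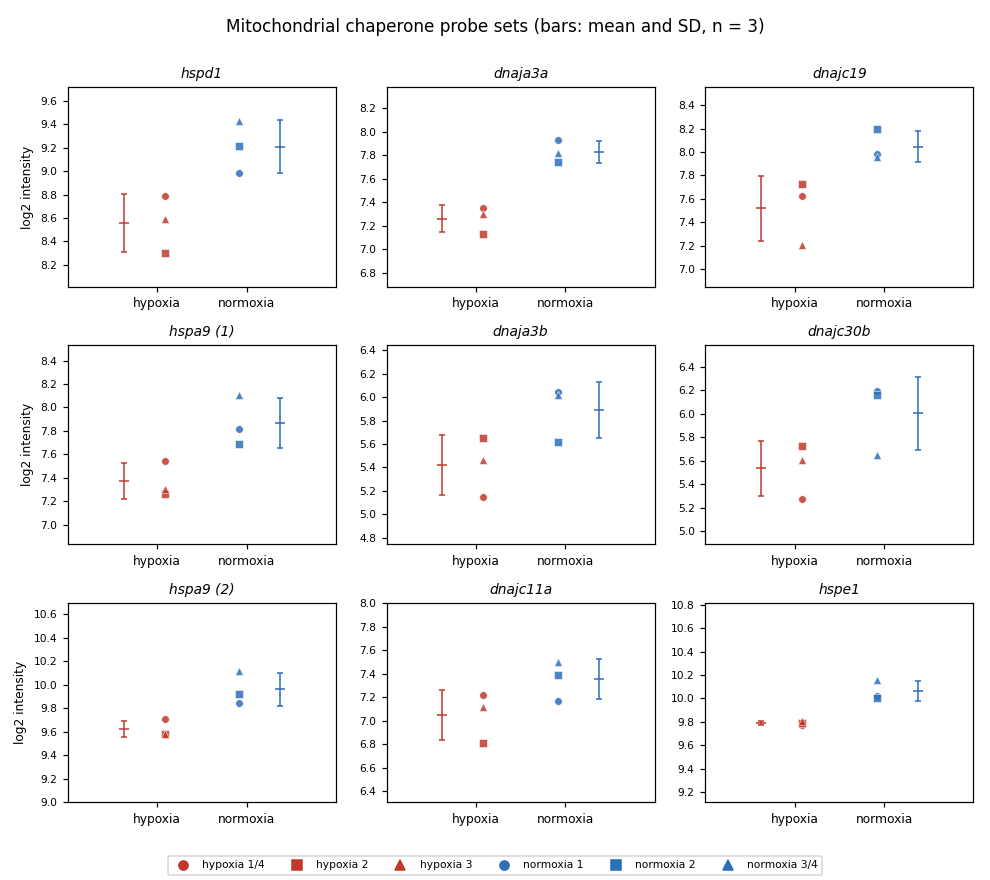
Log2 intensity of the 9 mitochondrial chaperone rows in each counted sample, hypoxia in red and normoxia in blue, with group mean and SD (n = 3). Each panel spans the same log2 range. The groups are separate in 6 panels and overlap for dnaja3b, dnajc30b and dnajc11a.

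Most other genes of mitochondrial protein quality control had differences below 0. This list was added after its values were seen, and clpxa and grpel2 each stand on more than 1 of its rows. Of 17 listed, 11 genes were on the array, on 15 rows, of which 14 lay below 0 and 2 were called lower, beside 6178 of all 10851 probe sets below 0 and 3.01% called lower. The called genes were phb2a, at -0.68 (adjusted p = 0.0367 from limma), and phb2b, at -0.63 (adjusted p = 0.0377 from limma). They code for prohibitin 2, a scaffold protein of the inner membrane. Neither call held in the deposited scaling, with no filter, with no intensity trend, in run 1 alone or without any 1 sample, and 1 row of the list was called with cyclic loess. The median of the 15 rows was -0.29. The HSP70 exchange factor gene grpel1 had -0.30, and grpel2 had -0.24 and 0.07 on its 2 rows.

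The ER chaperones showed no common direction, with 6 rows above 0 and 8 below and 0 calls in limma. There 1 row, pdia3, had an unadjusted p under 0.05, beside 21.2% of all probe sets. The gene pdia3, whose product acts on glycoproteins with calnexin and calreticulin, had 9.37, 9.60 and 9.45 in hypoxia against 8.97, 9.23 and 9.10 in normoxia. Groups were separate, and the difference was 0.37 ± 0.10 (SE, adjusted p = 0.101 from limma), with 0.39, 0.33 and 0.31 by run. It was called with the 8 samples as labelled (adjusted p = 0.0257 from limma). That fit counts near-identical arrays as separate samples and called 12.8% of all probe sets.

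A group of ER genes stood highest in 1 normoxia sample. The ER HSP70 gene hspa5, coding for BiP, had 9.03, 8.71 and 9.28 in hypoxia against 8.80, 8.96 and 9.96 in normoxia. The gene of its J protein partner dnajc3a had 5.71, 6.37 and 6.32 in hypoxia against 5.88, 5.97 and 7.38 in normoxia. The disulfide isomerase gene pdia6 had 6.10, 6.23 and 6.38 in hypoxia against 6.36, 6.06 and 7.50 in normoxia, and pdia4 had 7.69, 7.35 and 7.75 in hypoxia against 7.06, 6.89 and 8.11 in normoxia. For all 4 genes normoxia 3/4 was the highest of the 6 samples. It was also the highest, by less, for dnajc3b (7.12), both pdia7 rows (6.90 and 8.21) and the brighter pdia5 row (6.89). Both of its arrays had 9.96 for hspa5, but they were counted as 1 sample because they were as alike as technical repeats.

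These 4 genes, targets of the unfolded protein response in mammals, were set together after their values had been seen. Their differences were -0.24, -0.28, -0.40 and 0.24, in the order named, with intervals that all span 0 (-0.98 to 0.51 for hspa5). Without normoxia 3/4 all 4 lay above 0, at 0.12, 0.21, 0.03 and 0.62, and the median of the 14 ER rows was 0.09 in place of -0.13. Among the arrays of the first run, which leaves out normoxia 3/4, that median was 0.05. No difference in these genes between hypoxia and normoxia was detectable beyond the spread of the normoxia samples. The skeletal muscle marker mean was also highest in normoxia 3/4, at 10.83. The liver marker mean was 6.35, 9.55 and 10.25 in normoxia 1, 2 and 3/4, and higher in hypoxia, at 10.62 to 11.60. The part of these tissues in the ER values was not tested.

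**Figure D4:**
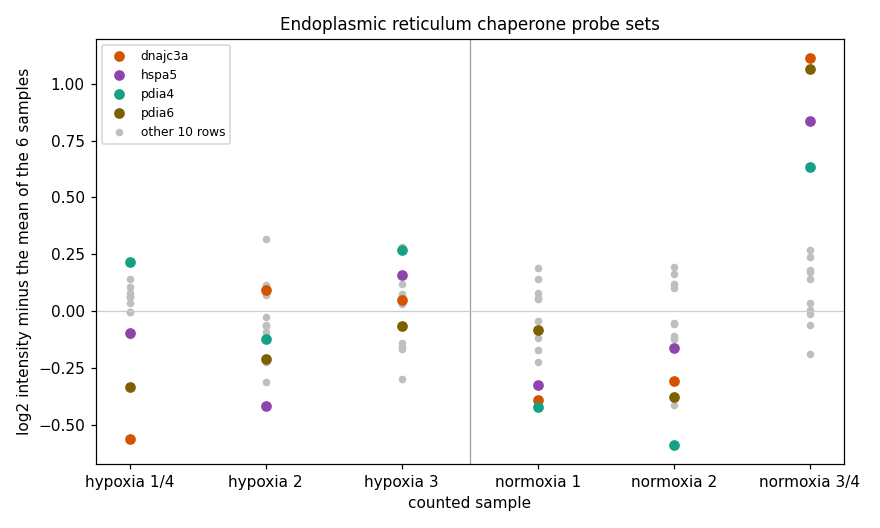
Log2 intensity of the 14 ER chaperone rows above the filter in each counted sample, minus the row's mean over the 6 samples, with the hypoxia samples on the left. The genes hspa5, dnajc3a, pdia4 and pdia6, in colour, stand highest in normoxia 3/4, as do the rows of dnajc3b and pdia7 and the brighter row of pdia5.

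The remaining ER rows varied less. The gene dnajb11, of a J protein that brings clients to BiP, had 0.20, dnajc1 0.16 and dnajb12a 0.05, while dnajc3b had -0.15 and dnajc10, whose product reduces disulfides, -0.22. The dnajc10 row was below the background bound on 2 of 5 hypoxia arrays. The rows of pdia7 gave -0.28, with separate groups, and -0.21, and those of pdia5 -0.12 and 0.09. Further genes of ER folding and of the unfolded protein response, 18 of 27 listed, were on the array. They had 1 call over 22 rows, higher in hypoxia, with a median of 0.11. Over all probe sets tested 3.97% were called, 0.958% of them all as higher. The called gene was ero1a, whose product reoxidizes the disulfide isomerases. It had 7.21, 7.06 and 7.18 in hypoxia against 6.02, 6.12 and 6.19 in normoxia and rose by 1.04 ± 0.11 on the log2 scale (SE, adjusted p = 0.0168 from limma). The list had 0 calls in limma with no intensity trend, in run 1 alone, without hypoxia 3 and without normoxia 1. The paralogue ero1b had 0.28, and xbp1, the gene of a transcription factor of this response, 0.26, neither called. Normoxia 3/4 was the highest sample for ero1b (7.40), hyou1 (8.83), herpud1 (8.59), serp1 (8.69), sel1l (6.62) and the tested manf and calr rows. It was not the highest for the other tested rows of this list. The median of the list was 0.0056 to 0.23 without 1 sample.

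Under each of the 4 scalings the TRiC/CCT median lay above that of all probe sets and the mitochondrial median below it. The ER median was -0.05 to -0.19, and the median over all probe sets ranged from -0.14 to 0.02. The cytosolic and nuclear rows as a whole had a median of 0.09, which turned to -0.01 in the deposited scaling and -0.09 under median scaling.

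**Figure D5:**
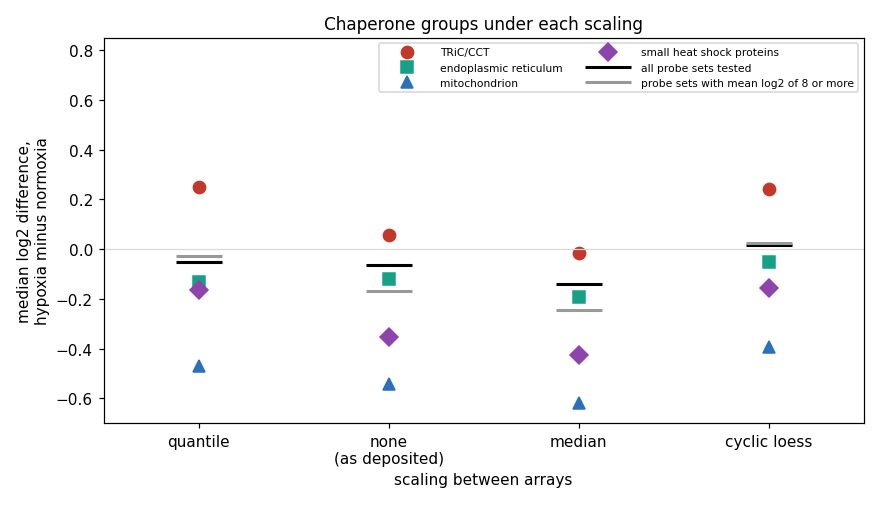
Median log2 difference, hypoxia minus normoxia, of 4 groups of chaperone rows under 4 scalings between arrays, with the medians of all probe sets tested and of the bright ones as bars. The TRiC/CCT median is 0.25, 0.06, -0.02 and 0.24 from left to right and the mitochondrial median -0.47, -0.54, -0.62 and -0.39.

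Of 8 genes with more than 1 row, 6 had rows of the same sign (cct2, dnajb6a, hsc70, hspa9, hspbp1 and pdia7) and 2 did not (dnaja2b and pdia5). The other 7 rows were under the filter on dim probe sets, those of hspa1b, dnajc17, dnajc24, cryaba, pdia2, dnajc5gb and 1 of 3 rows of pdia5. The hspa1b row was above the background bound on 1 array, and the other 6 rows were above it on none. No difference could be measured for these 7 rows. Of the rows placed in no compartment, dnajc4 had -0.29, dnajc18 -0.17 and dnajc5ga 0.10, all with overlapping groups.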

How the data were processed

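The deposited table held 1 linear intensity per probe set and array, as the authors deposited it, and the software behind it is not given in the sources used here. Values ran from -116 to 9979 and array medians from 36.2 to 51.6. The deposited array records, which hold another unit (text settings), placed arrays 1 and 2, arrays 3 and 4, and arrays 5 of both groups in 3 hybridization runs. The third run, whose records end in an aborted wash, holds the technical repeats.

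Intensities were quantile normalized, 1 was added, results under 1 were set to 1 and log2 was taken. The 115 control probe sets and the 30% of lowest mean (under 4.02) were left out, which left 10851. The background bound was 27.0 intensity units, 2 times an SD of 13.5 from the values below 0. The contrast hypoxia minus normoxia was tested two-sided with limma 3.58.1 (R 4.3.3), by lmFit, eBayes with an intensity trend and Benjamini-Hochberg adjustment. The script was tested on simulated data. Exact permutation of 3 against 3 samples cannot go below 0.1. The number of arrays limits the precision. Python 3.11.15, pandas 2.3.3 and matplotlib 3.10.9 drew the figures.

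Symbols came from GEO's platform annotation, in which 10802 probe sets have 1 symbol, 135 several and 4680 none, and all 74 members carried the same symbol in RefSeq's table. Members, compartments and lists were chosen with earlier results of these data known. Named rows were all called members, the 5 largest differences per compartment and a panel of 29 genes, beside which other members are given by value or range and pathway genes outside the rule were added after their values were seen.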

Additional observations from a re-analysis of the deposited data

How the results depend on the processing

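The counts rest on few samples. Over all probe sets 431 were called. With cyclic loess 369 were called, with values at the background bound 372, and with the lowest 50% left out 500 of 7751. The count was 102 in the deposited scaling, 789 under median scaling, 171 with no filter, 2 with no intensity trend, 1390 with the 8 samples as labelled, 1013 and 870 over 10 arrays with a random block for sample, without and with the run, and 1 (without hypoxia 3) to 204 (without hypoxia 2) when 1 sample was left out. Leaving out hypoxia 1/4 gave 88, normoxia 1 gave 28, normoxia 2 gave 96 and normoxia 3/4 gave 83. Chaperone rows called higher (1) and lower (2) became 0 and 1 in the deposited scaling, 0 and 7 under median scaling, 1 and 0 with cyclic loess or no filter, 2 and 1 with values at the background bound, 2 and 2 with the lowest 50% left out, 0 and 0 with no trend, 6 and 8 as labelled, 5 and 5 and then 5 and 4 with the random block, and 0 and 0 to 1 without 1 sample. Run 1 alone, a limma fit to 2 samples per group, gave 0 calls over all probe sets and among chaperones, where 1656 probe sets, 8 chaperone rows higher and 6 lower had an unadjusted p under 0.05. With no trend, 2179 of all 10851 probe sets, 7 chaperone rows higher and 11 lower had one. The second run holds 1 counted normoxia sample and the third 1 array per group, so neither was fitted alone.

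The median of the cytosolic and nuclear rows (0.09) was -0.012, -0.087 and 0.15 with the deposited, median and cyclic loess scalings, and 0.056 to 0.17 without 1 sample. That of the ER rows (-0.13) was 0.045 in run 1 and -0.17 to 0.090 without 1 sample, the highest without normoxia 3/4. That of the mitochondrial rows (-0.47) was -0.54, -0.62 and -0.39 under those 3 scalings, -0.37 with 16 added before log2, -0.34 in run 1 and -0.51 to -0.39 without 1 sample, with -0.40 for normoxia 1 and -0.41 for normoxia 3/4 left out. The causes were not tested.

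Of 34 named rows 21 kept their sign in every alternative that tested them, of 20 run. With the lowest 50% left out, dnajc4 (among the 21) and the dimmer cct2 row were not tested. In the deposited and median scalings the sign turned for hspa8 (-0.033 and -0.11), cct2 (-0.035 and -0.11), cct3 (-0.052 and -0.13) and dnajc5ga (-0.0057 and -0.081), and under median scaling also for cct4 (-0.017), cct5 (-0.030) and tcp1 (-0.036). The dimmer cct2 row turned to -0.027 with values at the background bound. It spanned -0.14 to 0.27 without 1 sample, with 0.24 when hypoxia 2 was left out. In run 1 dnajc3a (0.12) and pdia6 (0.027) turned. Without 1 sample the highest values were 0.016 for hspb1, 0.018 for dnajc18 (lowest -0.24), 0.12 for hspa5, 0.21 for dnajc3a and 0.027 for pdia6.

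The labels do not say whether the array numbers pair samples, and same-numbered arrays of both groups shared a hybridization run. Same-numbered labelled samples deviated together with r = 0.18, 0.10, 0.08 and -0.10. These values include the near-identical arrays as separate samples and cannot decide on a pairing. With the 8 samples as labelled and the number as a replicate block, 1062 probe sets were called, and 6 chaperone rows higher and 6 lower. Leaving out the 2 arrays of run 3, chosen after seeing the data, gave 422, 1 and 2.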

Other observations

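One probe set carries the symbols of 3 stress-inducible HSP70 genes and was therefore not counted as any of them. It had log2 intensities of 6.22, 6.50 and 6.56 in hypoxia 1/4, 2 and 3 against 6.13, 6.34 and 5.61 in normoxia 1, 2 and 3/4. The groups overlapped, and the difference was 0.40 (95% interval -0.11 to 0.91, adjusted p = 0.337 from limma). It was 0.15, 0.77 and 0.14 by run.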
